A study of Mus musculus with 4 samples.

Results

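DelB mice are homozygous for a deletion of 167 bins of 10 kb on chromosome 1, from 76390001 to 78060000 in build mm9, and are described here against the wild type (WT). The comparison holds the pairs of 10 kb bins that have no bin in the deleted interval, which are 347361 of the 500500 pairs of the map. Of these, 158466 pairs join a bin upstream of the deletion to a bin downstream of it, and 188895 pairs lie on one side of it and serve as the background. The maps cover the Epha4 region in the distal part of embryonic limb buds, taken at E11.5. Capture Hi-C crosslinks chromatin, ligates DNA ends that lie close together, and enriches the ligation products of a chosen region with probes before sequencing. WT and DelB have 1 library each, out of 4 libraries in the series, and strain, number of embryos and breeding are not given in the sources used here.

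Chromosomes of vertebrates fold into domains within which enhancers and promoters meet often, and boundaries between domains, commonly occupied by CTCF and cohesin, limit contacts between neighbours. Epha4 encodes an ephrin receptor tyrosine kinase that is active in the developing limb, and its limb enhancers lie in its own domain. Pax3 encodes a paired box transcription factor best known from muscle progenitors and the neural crest, and it lies in the next domain. In the published description of these mice, DelB removes Epha4 together with the boundary that separates it from Pax3, so the comparison asks how the remainder of the Epha4 domain and the Pax3 domain meet once the sequence between them is gone. In the RefSeq gene table of GRCm38, used for names and order alone, the protein-coding genes run Slc4a3, Epha4, Pax3, Gm2102, Sgpp2, Farsb and Mogat1. Gene positions in mm9 were not checked here, so all windows below are named by position. No sequence of these windows is printed, because no mm9 genome was used here.

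The libraries held 5155274 counts of read pairs in WT and 5543587 in DelB. DelB was scaled to WT by the counts of pairs on one side of the deletion that lie 20 kb to 2 Mb apart, a factor of 1.44. Pairs with a bin in the deleted interval kept 2.31% of their WT level in DelB (2.28% to 2.33%, 42845 counts). With 1 library per genotype there is no spread between embryos and no p-value, and all 95% intervals below are exact and cover counting error alone. Fewer chromosomes with a contact and a weaker contact in each cell cannot be told apart in such maps.

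Contacts across the deletion were higher in DelB in every distance class up to 2390 kb. They made up 2.81% of the counts outside the interval in WT (108395 counts) and 7.05% in DelB (387504 counts). The bins on the 2 sides of the junction, now neighbours, had a scaled count of 571 in DelB and 1 in WT, against a mean of 544 for neighbouring bins on one side of the deletion in DelB. Pairs 10 to 40 kb apart on the DelB allele were at 63.6 times their WT level (45.2 to 92.6, from 3027 and 33 counts). The ratio fell with the distance left on the allele, to 12.4 at 100 to 190 kb (11.4 to 13.5), 7.15 at 400 to 790 kb (6.99 to 7.31), 2.72 at 1200 to 1590 kb (2.66 to 2.79) and 2.13 at 1600 to 2390 kb (2.08 to 2.17). These ratios include the shortening of the distance by the length of the deletion.

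The expected level takes that shortening into account. At each distance it is the mean over pairs on one side of the deletion in that library. Measured this way, the junction was ordinary at short range and stood out at intermediate range. Observed over expected was 0.982 at 10 to 40 kb (0.947 to 1.02), 1.02 at 50 to 90 kb (0.987 to 1.05) and 1.03 at 100 to 190 kb (1.01 to 1.05). It was 1.33 at 200 to 390 kb, 2.05 at 400 to 790 kb (2.03 to 2.06) and 2.02 at 800 to 1190 kb (2.01 to 2.04). Beyond that it returned to 1.04 at 1200 to 1590 kb and fell to 0.872 at 1600 to 2390 kb (0.863 to 0.881). The product of the WT bin factors of the authors' balancing averaged 1.13 over pairs of the 500 kb flanks and 0.945 over pairs on one side, so raw values near the deletion are raised by coverage. Dividing each count by these factors lowered observed over expected to 0.921 at 100 to 190 kb, 1.08 at 200 to 390 kb, 1.63 at 400 to 790 kb and 1.67 at 800 to 1190 kb, so the rise between 400 and 1190 kb was present on both scales.

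**Figure D1:**
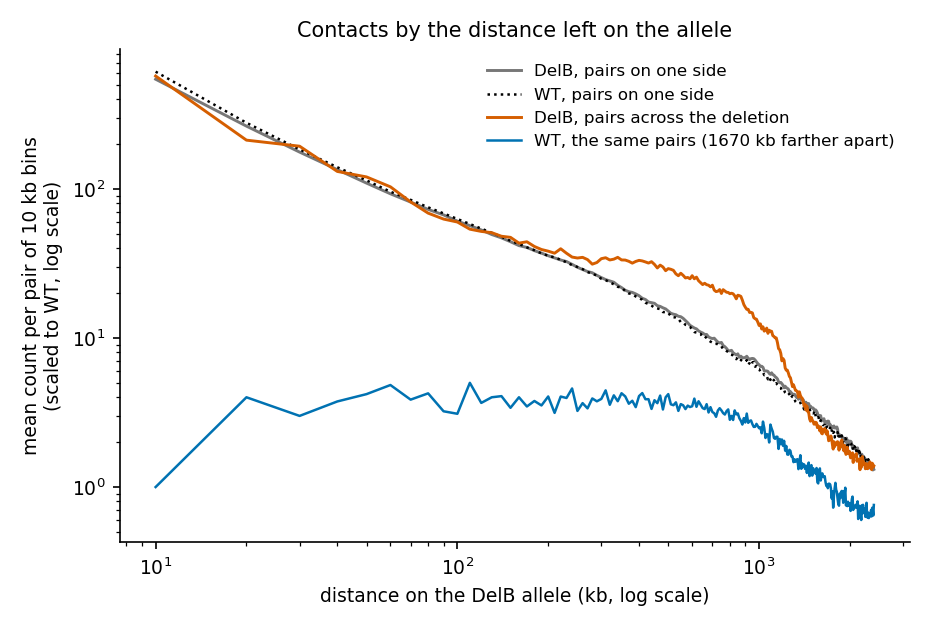
Mean count per pair of 10 kb bins (vertical, scaled to WT, log scale) by the distance on the DelB allele in kb (horizontal, log scale). The line of DelB pairs across the deletion follows the lines of pairs on one side up to about 200 kb and lies above them between 400 and 1190 kb, where observed over expected was 2.05 and 2.02. Farther out it meets them and then lies below, at 1.93 for 1800 kb against 2.51 in DelB and 2.31 in WT on one side. By 2400 kb it is close to them again. The same pairs in WT lie below throughout.

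Seen from the upstream side, the contacts with the first 500 kb downstream of the deletion grew in excess with distance from the junction. The 100 kb window next to the junction, which starts at 76290001, had 22782 counts with that flank in DelB and 1525 in WT, a ratio of 10.4 (9.84 to 10.9) but an observed over expected of 0.903. Windows farther out had similar counts, with 21820 at 76090001 to 76190000, 23424 at 75890001 to 75990000 and 22228 at 75790001 to 75890000. Since the expected level falls with distance, observed over expected climbed to 1.84, 3.06 and 3.47 in these 3 windows. Contacts of the upstream side with the downstream flank were therefore nearly level over 600 kb, where pairs on one side of the deletion fall steeply. The highest window was 75590001 to 75690000, 700 to 800 kb from the junction, with 25837 counts in DelB and 2343 in WT, a ratio of 7.65 (7.33 to 7.98) and an observed over expected of 5.44 (5.37 to 5.51), or 4.26 after the coverage correction. The next window, from 75490001 to 75590000, fell to 11321 counts and 2.72 times the expected level, and the one after it, from 75390001 to 75490000, to 4832 counts and 1.33 times. Over these windows the excess fell steeply, and a lower one remained farther out, with 1.33 times (1.29 to 1.37) at 75290001 to 75390000 before the window from 75190001 to 75290000 reached 0.948.

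On the downstream side the excess was lower and had a different shape. The 500 kb upstream flank, which starts at 75890001, met the first 100 kb downstream, from 78060001 to 78160000, with 40787 counts in DelB and 2264 in WT, a ratio of 12.5 (12.0 to 13.04) and 1.62 times the expected level. The next windows stood at 1.44 times at 78160001 to 78260000 and 1.35 times at 78260001 to 78360000. The window from 78360001 to 78460000 was the highest, with 22994 counts in DelB and 2171 in WT, a ratio of 7.34 (7.03 to 7.68) and 2.46 times the expected level (2.42 to 2.49), or 1.80 after the coverage correction. It therefore held more counts than the nearer window from 78260001 to 78360000, which had 15992. Farther out the upstream flank met 78460001 to 78560000 at 1.37 times, 78560001 to 78660000 at 0.945 times and 78760001 to 78860000 at 0.495 times the expected level, so that contacts passed from above to below the level set by distance between about 400 and 700 kb from the junction.

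**Figure D2:**
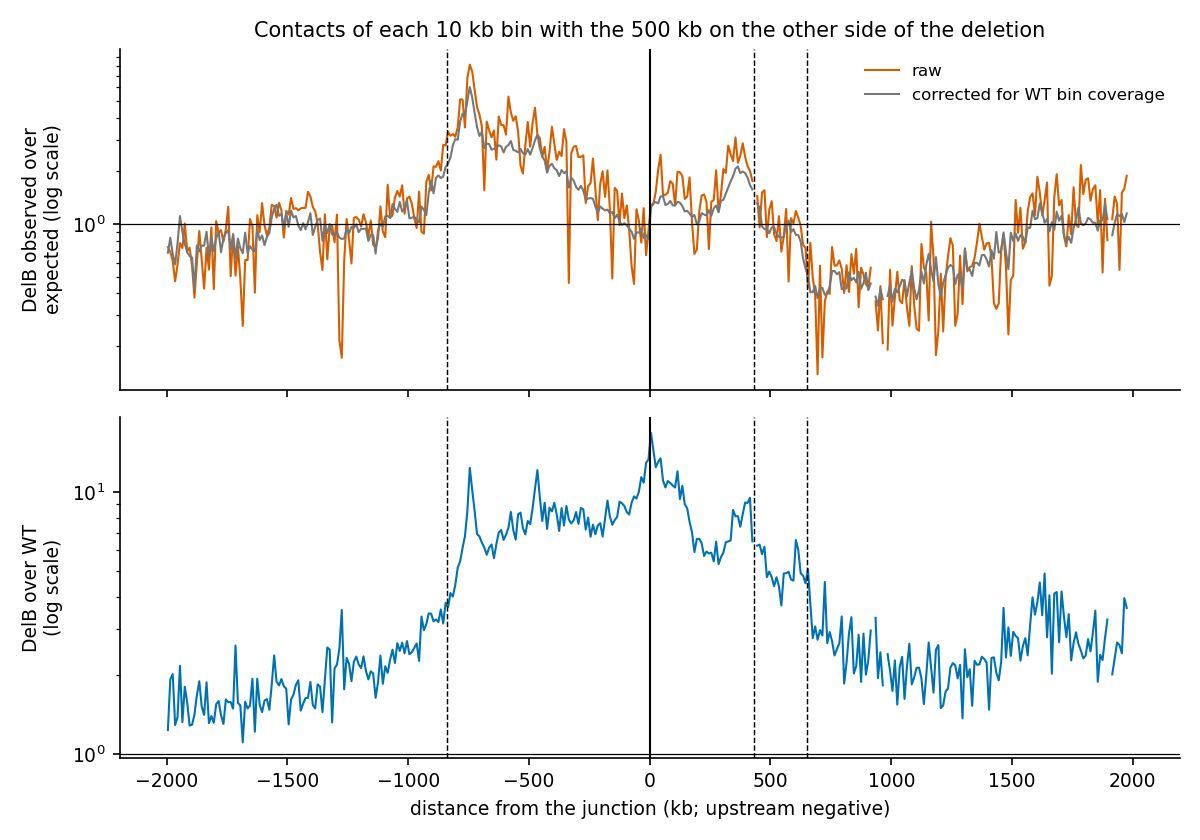
Contacts of each 10 kb bin with the 500 kb on the other side of the deletion, by the distance from the junction in kb (upstream negative). The upper panel gives DelB observed over expected (log scale), raw and corrected for WT bin coverage, and the lower panel DelB over WT (log scale); bins of low coverage are left out and dashed lines mark the edges. The raw curve peaks about 745 kb upstream, at 8.09, and about 355 kb downstream, at 3.11. The corrected curve is broad on the downstream side, with its top at about 365 kb, at 2.13.

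At 10 kb resolution the upstream maximum was narrow, while the downstream one was broad after the coverage correction. On the upstream side the bins with the highest observed over expected were 75640001 to 75650000 at 8.09, the neighbours at 75650001 and 75630001 at 7.4 and 6.80, and 75660001 at 5.82. The bin from 75800001 to 75810000 stood at 5.32. On the downstream side the highest bins were 78410001 to 78420000 at 3.11, 78440001 to 78450000 at 2.88, 78380001 to 78390000 at 2.79 and 78390001 to 78400000 at 2.5, followed by 78100001 to 78110000 at 2.48. After the coverage correction the first upstream and downstream bins were at 6.03 and 2.06, and the bins from 75800001 and 78100001 at 2.81 and 1.43. The bins next to 75800001 were then at 2.75 and 2.97, so that bin did not stand out. On the corrected scale the downstream side was highest at 78420001 to 78430000, at 2.13. Its bins stayed at 1.57 to 2.13 between 78380001 and 78490000. The 5 lowest bins within 1 Mb upstream, at 0.453 to 0.661 times the expected level, were at 0.820 to 1.61 after the correction. The lowest downstream bins, all beyond 78750000, stayed at 0.340 to 0.430, and so were low on both scales.

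The 500 kb flanks met each other 8.57 times as often in DelB as in WT (8.38 to 8.75) and at 1.62 times the expected level (1.61 to 1.63), or 1.33 after the coverage correction. In WT the same flanks, at their own distance, were at 2.16 times the expected level. Blocks of the same size that adjoin a position on one side of the deletion gave 0.397 to 2.17 in DelB over 593 positions, with a median of 0.916, and 50 of them were at or above 1.62. After the correction the range was 0.431 to 1.68, with 100 of 593 at or above the junction. With 250 kb flanks 216 of 693 positions were at or above the junction's 1.10, and 407 after the correction. With 100 kb flanks 357 of 753 were at or above its 0.992, and 467 after the correction. The junction thus lay inside the range of intact positions at each size, in its upper part with 500 kb flanks and, after the correction, below the median with 250 kb and 100 kb flanks. The ratio to WT at intact positions was 0.938 to 1.15 for 500 kb flanks, but pairs there keep their distance, so it is no measure to set the 8.57 against.

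A direct comparison with the sequence that the flanks faced before is free of the expected level. In WT the upstream flank met the 500 kb that follow it, from 76390001 to 76890000, with 73488 counts, and in DelB it met the 500 kb that follow it on that allele, from 78060001 to 78560000, with 113007 counts. At equal distances and after scaling, the ratio was 1.07 (1.06 to 1.08), or 1.13 after the coverage correction. With 250 kb flanks it was 0.970 and with 100 kb flanks 0.971 (0.943 to 0.999), but 1.03 and 1.07 after the correction, which turned the direction of both. Over these sizes the upstream flank met its new neighbour at 0.970 to 1.07 of the level at which it met the old one, or at 1.03 to 1.13 of it after the correction. The downstream flank met the 500 kb that precede it in WT, from 77560001 to 78060000, with 61147 counts, and its ratio was 1.28 (1.27 to 1.29). This direction depended on the size of the block, with 0.890 for 250 kb (0.876 to 0.904) and 0.672 for 100 kb (0.655 to 0.690). After the coverage correction the ratio was 1.22 for 500 kb, 0.912 for 250 kb and 0.783 for 100 kb. Close to the junction the downstream flank thus met its new neighbour less often than the old one, and over 500 kb more often. With InvF, a library with an inversion upstream in which this interval is present, in place of WT the 500 kb ratio was 1.24.

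The fused domain had an edge on each side, taken as the position of the largest fall in observed over expected between the adjoining 100 kb nearer to and farther from the junction. On the left the fall lay after 75550000, 840 kb from the junction, where the value dropped from 4.57 to 2.04, a factor of 2.24. In WT, seen from the first 500 kb of the interval that DelB lacks, the largest fall lay after 75550000 as well, from 2.82 to 1.18. The next largest fall in DelB, after 75300000, was a factor of 1.48. On the right there were 2 falls of almost the same size: after 78710000, 650 kb from the junction, from 0.935 to 0.418, and after 78490000, 430 kb from the junction, from 2.39 to 1.07. Both had a factor of 2.24. In WT, seen from the last 500 kb of the interval, the same 2 positions gave the largest falls, in the other order, with factors of 2.53 after 78490000 and 1.72 after 78710000. The left edge moved to 75460000 with 50 kb windows and to 75490000 with 200 kb windows, and the right edge to 78580000 with 200 kb windows. The edges seen across the junction in DelB thus lay, in this window size, at positions where contacts already dropped in WT.

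Inside the left edge and the nearer right fall, an area of 840 kb by 430 kb, contacts were 7.92 times those of WT (7.79 to 8.05, from 174176 and 15250 counts) and 2.15 times the expected level, or 1.72 after the coverage correction. Between the right falls, over 220 kb, they were 5.21 times WT and 1.33 times expected. The 500 kb upstream of the left edge met the 650 kb inside the farther right fall at 2.56 times WT and 1.27 times expected, and the 840 kb inside the left edge met the 500 kb beyond the farther right fall at 2.52 times WT but 0.530 times expected (0.521 to 0.538). Blocks beyond both edges were at 2.05 times WT and 0.467 times expected. In WT the corresponding areas, at their own distance, had stood at 2.75, 1.57, 2.16, 0.994 and 0.697 times the expected level. The area inside the edges was thus already above the expected level in WT, as was the area upstream of the left edge. In each of these areas the WT value was above the DelB value.

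**Figure D3:**
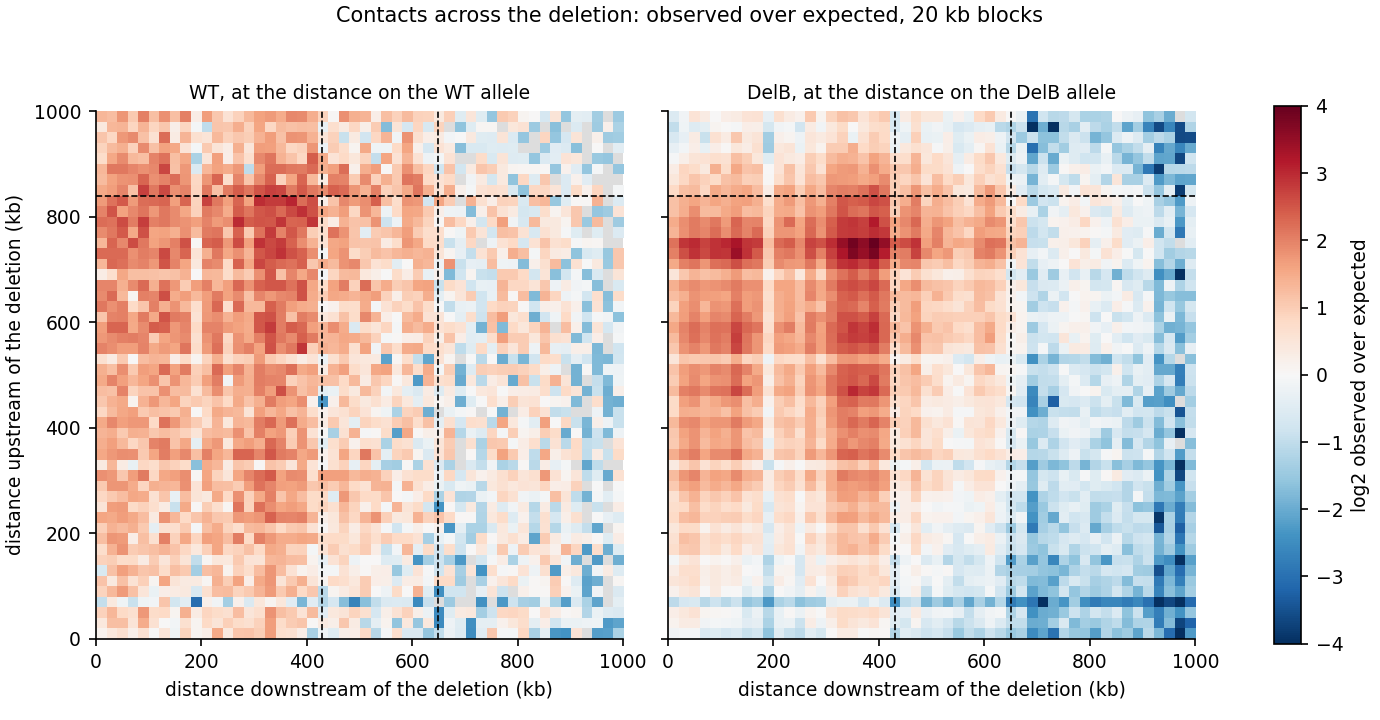
Observed over expected contacts in blocks of 20 kb between the 1000 kb upstream (vertical, distance from the deletion in kb) and the 1000 kb downstream (horizontal) of the deletion, on a log2 colour scale, in WT and DelB; grey blocks have no count. Dashed lines mark the left edge at 840 kb and the right falls at 430 and 650 kb, and the darkest spot in DelB lies about 745 kb upstream and 355 to 385 kb downstream.

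The strongest single contacts gathered at the far corner of this area. Among pairs across the deletion at least 200 kb apart on the allele, the 50 with the largest excess over the expected count, in units of its square root, formed 10 groups of touching pairs. The windows described here were chosen after these values were seen. The largest group, of 29 pairs, joined 75630001 to 75670000 with 78380001 to 78490000, and these pairs held 3207 counts in DelB and 162 in WT. A group of 10 pairs joined 75640001 to 75670000 with 78170001 to 78210000 (1183 and 61 counts), and a group of 3 pairs joined 75640001 to 75660000 with 78090001 to 78110000 (370 and 18 counts). The top pair, 75640001 to 75650000 with 78410001 to 78420000, which are 1100 kb apart on the DelB allele, had 194 counts in DelB and 12 in WT, at 23.04 times the expected level (19.9 to 26.5), or 13.7 after the coverage correction. Over the 50 pairs the level ranged from 8.49 to 23.04 times expected, or from 3.69 to 13.7 after the correction. Of the 50 pairs, 37 had their upstream bin between 75620001 and 75660000, so a single 40 kb stretch of the upstream side took part in most of them.

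In WT this stretch, called the upstream contact point below, met other partners. Its 10 strongest partner bins 300 kb to 2.5 Mb away all lay in the interval that DelB lacks, with 77500001 to 77510000 at the top, at 31.9 times the expected level (28.2 to 35.9), and 77890001 to 77900000 at 26.7 times (22.8 to 31.1). As blocks, the upstream contact point met 77480001 to 77530000 with 1007 counts at 23.8 times, and 77880001 to 77930000 with 559 counts at 18.3 times the expected level. In DelB these counts were 34 and 18, at 2.34% and 2.23% of WT, the level of the residual counts in the whole interval. Instead, in DelB the 10 strongest partners of the upstream contact point lay on the downstream side, led by 78410001 to 78420000 at 16.6 times (15.2 to 18.03) and 78440001 to 78450000 at 15.8 times the expected level. In WT both of these bins lay beyond 2.5 Mb, so the lists of WT and DelB do not cover the same sequence. Outside that range, they stood at 8.05 and 2.98 times the expected level in WT.

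The downstream partner changed as well. The 90 kb from 78380001 to 78470000, called the outer downstream point, had its 10 strongest WT partners in the deleted interval too, near the downstream end, led by 77970001 to 77980000 at 7.29 times the expected level. The range of 300 kb to 2.5 Mb leaves out most sequence between this point and the deleted interval. In WT it also leaves out the upstream contact point. As a block the outer downstream point met 77940001 to 77980000 with 3507 counts at 6.22 times (6.02 to 6.43) in WT. It met the upstream contact point with 196 counts at 5.06 times the expected level in WT (4.37 to 5.82) and with 3387 counts at 11.7 times in DelB (11.3 to 12.1), or 8.40 after the coverage correction, which is 12.0 times the WT contacts (10.4 to 13.9). The inner downstream point, from 78170001 to 78200000, met the upstream contact point with 59 counts in WT and 1138 in DelB, at 3.84 and 8.81 times the expected level. Its 10 strongest WT partners in that range were all on the upstream side, at low counts of 19 to 30 each. That range leaves out nearer sequence of the deleted interval. In WT the inner point met 77940001 to 77980000 with 905 counts at 2.30 times the expected level, or 1.63 after the coverage correction. It met 77480001 to 77530000 and 77880001 to 77930000 at 0.783 and 0.830 times. The contacts between the inner and the outer downstream point, both on one side of the deletion, were 1.29 times those of WT (1.21 to 1.37). The stretches that met each other most across the junction in DelB had thus each met sequence of the deleted interval, or each other at a lower level, in WT.

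**Figure D4:**
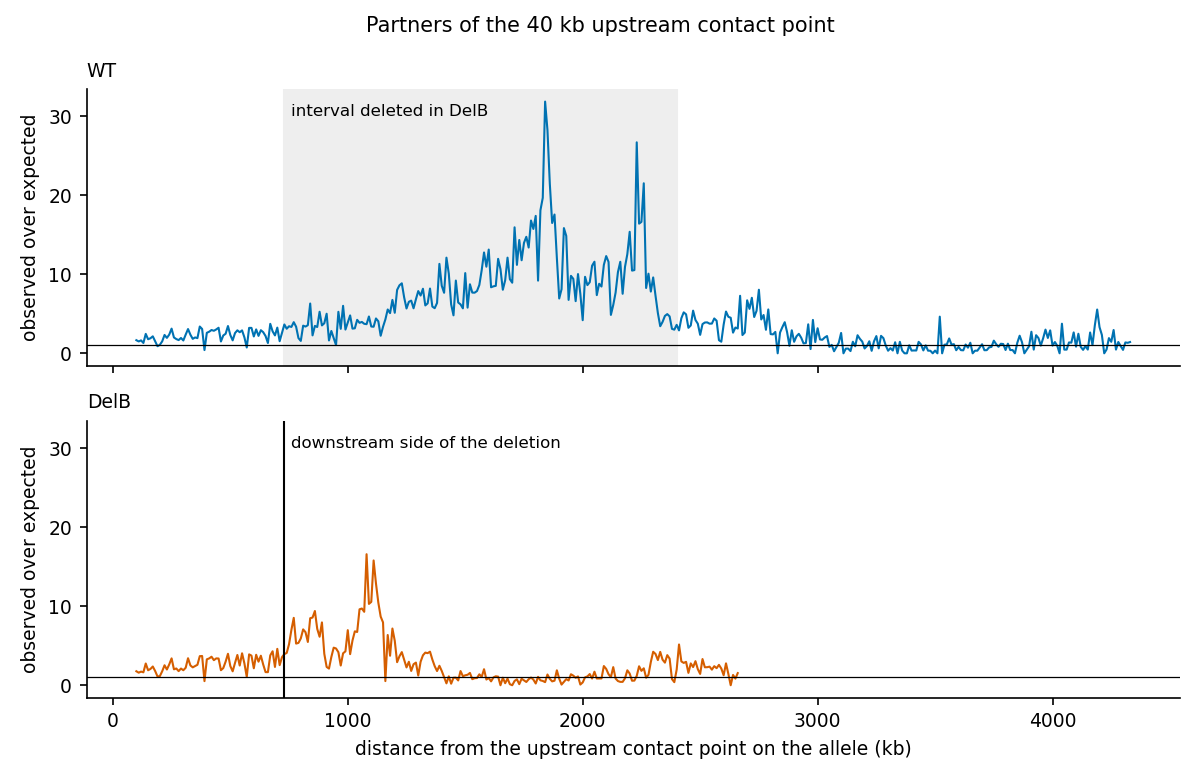
Observed over expected contacts of the 40 kb upstream contact point (vertical) with each 10 kb bin farther downstream, by distance on the allele in kb (horizontal), in WT and DelB. WT has peaks of 31.9 and 26.7 inside the grey interval that DelB lacks, and DelB has peaks of 16.6 and 15.8 on the far side of the junction, marked by the vertical line.

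The contacts of each flank were also divided by partner, over pairs at least 20 kb apart. In WT the upstream flank had 47.95% of its contacts with the interval that DelB lacks, 24.4% within itself, 22.4% with sequence farther upstream, 2.44% with the downstream flank and 2.84% with sequence farther downstream. In DelB the downstream flank took 25.2% (25.07% to 25.3%) and sequence farther downstream 8.80%, while the share within the upstream flank was 33.8% and the share farther upstream 32.2%. So the share that crossed the deletion rose by 28.7 percentage points. In WT the downstream flank had 32.8% of its contacts with the interval, 30.7% within itself, 21.8% farther downstream, 3.52% with the upstream flank and 11.2% farther upstream. In DelB it had 26.8% with the upstream flank and 28.6% farther upstream, which includes the upstream contact point, against 26.2% within itself and 18.4% farther downstream. The share that crossed rose by 40.7 percentage points and exceeded the share on the flank's own side. Both rises include the shortening of the distance by the length of the deletion. Residual counts in the interval are left out in DelB. Shares sum to 100% in each library, so a rise in one class lowers the others by construction.

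**Figure D5:**
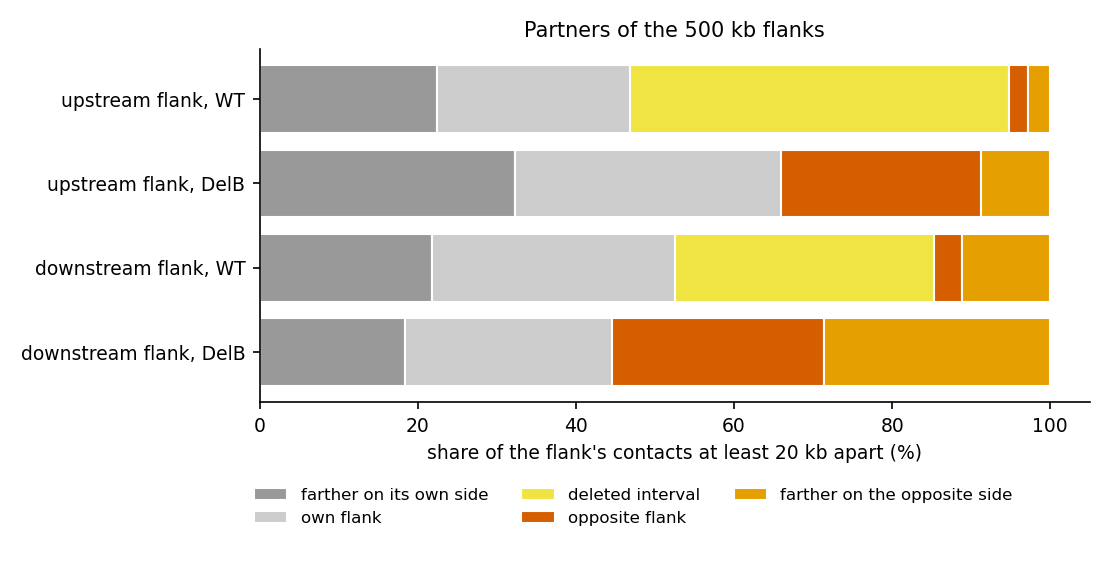
Share of the contacts of each 500 kb flank by partner, in percent of its contacts at least 20 kb apart (horizontal), for WT and DelB. The yellow part, the deleted interval, is 47.95% and 32.8% in WT; in DelB the orange parts, which cross the deletion, reach 25.2% and 8.80% for the upstream flank and 26.8% and 28.6% for the downstream flank.

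The junction itself had no low insulation score, while a position inside the downstream flank had one with 100 kb and 200 kb windows but not with 400 kb. The score is the log2 of the mean count across a position in a window, relative to the mean over positions of the library, and is low at boundaries. At the junction it was -0.022 with a 100 kb window, 0.058 with 200 kb and 0.51 with 400 kb in DelB. With 200 kb, WT had 0.32 and 0.067 at the downstream and upstream ends of the deletion and -0.76 at the boundary after 77940000, in the deleted interval. In DelB the score was lower inside the downstream flank, after the bin that starts at 78170001, at -0.34 against 0.36 in WT with 200 kb, -0.23 against 0.19 with 100 kb and 0.069 against 0.44 with 400 kb. The 200 kb and 400 kb windows reach past the junction in DelB and so take in other sequence than in WT. The 100 kb window does not reach the junction. The contacts on one side of the deletion across this position were lower in DelB: the 120 kb before it met the 120 kb after it at 0.708 of WT (0.690 to 0.726, from 11938 and 11693 counts). The last 120 kb upstream of the deletion met the 120 kb before this position at 1.01 times the expected level and the 120 kb after it at 0.717 times (0.697 to 0.738). For the whole upstream flank these values were 1.62 and 1.38, and in WT 2.22 and 2.05. At the right falls the score hardly differed between the libraries, at -0.84 in DelB and -0.90 in WT after 78490000 and -1.01 in both after 78710000. At the WT boundary after 75610000 it was -0.83 in DelB against -1.003 in WT.

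Contacts on one side of the deletion differed much less from WT. Near the deletion they were mostly above the range of far blocks on the upstream side. On the downstream side most blocks stayed within that range while the others lay above or below it. In the 800 kb upstream, 34 of 36 blocks of 100 kb by 100 kb lay above the range of blocks at the same distance over 1 Mb from the deletion, and 0 lay below. Blocks of a window with itself were among those above, though lower than in WT. They were at 0.913 to 0.975 of WT, against 0.827 to 0.909 for far blocks. The 100 kb next to the junction met 75990001 to 76090000 at 1.25 times WT (1.2 to 1.31), against 0.886 to 1.13 for 52 far blocks, and met 75690001 to 75790000 at 1.4 times (1.32 to 1.49), against 0.830 to 1.25 for 46 far blocks. In the 800 kb downstream, 6 of 36 blocks lay above that range, 21 within it and 9 below. The first 100 kb downstream met the next window, from 78160001 to 78260000, at 0.728 of WT (0.708 to 0.748) and the window from 78260001 to 78360000 at 0.704 (0.675 to 0.736), against ranges of 0.842 to 1.04 and 0.864 to 1.07. Of the 8 blocks of this first window with its own side, 5 lay below the far range and 3 within it, at 0.919, 1.02 and 0.939 for offsets of 300, 400 and 600 kb. In contrast 78160001 to 78260000 met 78360001 to 78460000 at 1.19 times (1.16 to 1.23) and 78460001 to 78560000 at 1.24 times WT. The first 100 kb of the downstream side thus had fewer contacts with its nearest neighbours than in WT, while the 100 kb around the inner downstream point had more with the 100 kb around the outer one. The far blocks share counts with each other and are no independent replicates.

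Square blocks with sides of 100 kb were tiled outward from the junction, and those with at least 50 counts in 1 of the libraries were compared. Of 3194 blocks, 238 (7.45%) were over 1 log2 unit higher in DelB and 0 (0%) were lower by as much. All 238 were among the 1341 blocks across the deletion (17.7%), and 0 of 1853 blocks on one side passed the limit in either direction. The median log2 ratio was 0.26 across the deletion and 0.027 on one side. Every block across the deletion with a gap under 1 Mb on the allele was higher (15 of 15 under 500 kb and 40 of 40 from there on), as were 103 of 155 at 1 to 2 Mb and 80 of 502 at 2 to 4 Mb. Of the 238, 202 had their upstream block within 1000 kb of the junction, and 56 lay within the left fall and the farther right fall. No share of the tested blocks is given for these areas, so the 202 and 56 do not show where such blocks were more frequent. These counts include the shortening of the distance, and blocks past the limit reached farther than the edges. With libraries scaled by the sum of all counts, 444 blocks across the deletion and 17 on one side would be higher.

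The authors also deposited a signed difference map of DelB and WT, in which most values are 0 and whose direction is not stated. In the authors' deposited table, outside its first row and last column, 2579 values across the deletion were above 0. Of these, 2233 (86.6%) lay inside the left edge and the nearer right fall, and 2441 (94.6%) inside the left edge and the farther right fall. Of the 3612 pairs in the smaller area, 61.8% were above 0 in the authors' deposited table, against 11.3% between the right falls, 4.98% in the 500 kb upstream of the left edge and 0.128% beyond the farther right fall. The share above 0 thus dropped at both right falls. Values below 0 across the deletion numbered 7 in the authors' deposited table, and 0 of them lay in these 4 areas. On one side of the deletion 4 values were above 0 and 3 below.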

How the data were processed

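The comparison uses 1 WT and 1 DelB library, grouped by the genotype label. The submitters' processing notes name Bowtie2 2.2.6 and mm9. The authors' raw maps hold counts of read pairs between bins of 10 kb (mapping quality 30, from the names of the files). Their deposited KR maps hold a balanced signal, used as an alternative and for bin factors: the square root of raw over balanced value on the diagonal, which gave back the WT raw map. The authors' difference map holds a score, made in a way not given in the sources used here. Removal of PCR duplicates is not given there either, and the intervals treat counts as independent. InvF, in which the deleted interval is present but 74830001 to 75900000 is inverted, served as a second comparator in 3 alternatives. In the crossing share of the downstream flank, the upstream sequence includes this inverted stretch. No column was left without a sample.

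Python 3.11.15 was used with numpy 2.4.6 for the values and scipy 1.17.1 for the intervals, and matplotlib 3.10.9 for the plots. Ratios have exact conditional binomial, observed over expected exact Poisson and shares exact binomial intervals, at the 95% level. Blocks used a pseudocount of 1. Edges were sought 100 kb to 1.5 Mb from the junction. Named bins were the 5 highest and 5 lowest per side within 1 Mb, among bins with at least 20% of the median coverage. Functions were tested on simulated maps, where edges and changed blocks were recovered but raw observed over expected between 500 kb flanks read above the planted level, so corrected values stand beside raw ones. The members, windows and rules were chosen with earlier results of these data known, and the windows of the contact points, the blocks around the low insulation score and the partners named after the values here were seen. DelBs was not analysed here.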

Additional observations from a re-analysis of the deposited data

Results flagged for a closer look

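Pairs with a bin in the deleted interval, without its last bin, had 42845 counts in DelB, 2.31% of the WT level after scaling (2.28% to 2.33%). This signal lies outside the pairs compared, and its origin was not tested. Subtracting the WT map at this share from DelB raised the 500 kb contact ratio from 8.57 to 8.74.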

How the results depend on the processing

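There were 9 results with 65 alternatives. Of these, 19 stayed within the counting interval, 50 kb or 1.5 times of the reported value, 41 moved and 5 changed sides of 1. In none did the contact ratio or a crossing share turn direction. The contact ratio across the deletion was 11.49 with scaling by all counts, 10.8 and 19.3 with 250 kb and 100 kb flanks, 7.91 with KR maps, and 8.11 against InvF with a 490 kb upstream flank. Observed over expected was 1.10 with 250 kb and 0.992 with 100 kb flanks, 1.33 with WT bin biases, 1.24 with KR maps, 1.49 and 1.94 with the expected level from upstream or downstream pairs alone, and 1.65 with the residual share subtracted. The upstream replacement ratio was 1.43 with scaling by all counts, 0.970 and 0.971 with 250 kb and 100 kb flanks, 1.13 with WT bin biases, 1.06 with KR maps and 1.09 with the residual share subtracted. The downstream one was 1.72, 0.890, 0.672, 1.22, 1.14 and 1.31 in the same order, and 1.24 against InvF. The left edge moved to 75460000 and 75490000 with 50 kb and 200 kb windows, and the right edge to 78490000 with the expected level from downstream pairs and to 78580000 with 200 kb windows. Higher blocks across the deletion numbered 444 of 1341 with scaling by all counts, 764 of 1073 (71.2%) with 50 kb blocks, 60 of 364 (16.5%) with 200 kb blocks and 54 of 1341 over 2 log2 units, against 238 of 1341 (17.7%). The minimum of 50 counts in 1 of the libraries keeps fewer of the smaller blocks, so these shares are of different sets. The rise of the upstream crossing share, in percentage points, was 26.96 and 28.3 with 250 kb and 100 kb flanks, 31.3 with WT bin biases, 30.3 with KR maps, 29.1 with the residual share subtracted and 32.4 for pairs at least 50 kb apart. That of the downstream share was 43.8, 49.7, 36.6, 37.4, 41.2 and 44.5 in the same order, and 41.7 against InvF.

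Scaling by all counts multiplied every ratio to WT by the same factor, and DelB holds few counts in the interval. No paired analysis was possible because there is 1 library per genotype, and there was no replicate to leave out. KR values in DelB are balanced with the nearly empty deleted bins.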

Other observations

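Beyond the farther right fall the contacts of the 500 kb upstream flank did not decline further in step with distance. They were lowest against the expected level at 78960001 to 79060000, at 0.312 times (1134 counts), and climbed from there, though not in every window, through 0.506 times at 79260001 to 79360000 to 1.07 times at 79560001 to 79660000, 1.31 times at 79660001 to 79760000 (2084 counts, against 405 in WT) and 1.36 times at 79860001 to 79960000 (1.29 to 1.42). After the coverage correction these 3 windows were at 0.908, 1.07 and 1.05, against 0.414 at the low point. The ratio to WT had its low and high points in other windows, with 1.86 at 79260001 to 79360000 (1.67 to 2.08) and 3.57 at 79660001 to 79760000 (3.21 to 3.98), against 2.45 and 2.63 where observed over expected was lowest and highest. In WT the same windows were at 1.25, 1.17 and 1.47 times the expected level, at their own distance.

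Other single bins of the upstream side took part in strong contacts with the downstream points. The bin from 75800001 to 75810000 had 124 counts with 78410001 to 78420000 in DelB and 4 in WT, and the bin from 75910001 to 75920000 had 125 and 12. These bins are also among the 10 strongest partners of the outer downstream point, at 8.43 and 7.77 times the expected level. They were named after their values were seen. Against the whole downstream flank and after the coverage correction, the bin from 75800001 was at 2.81, with neighbours at 2.75 and 2.97. The bin from 75910001 was at 2.99, with neighbours at 2.71 and 3.23. Neither bin thus stood above both of its neighbours on that scale.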
